A study of Sus scrofa with 599 samples.

Results

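The comparison described here is between backfat of pigs that were never made obese and backfat of pigs that had gained and then lost weight. It covers the upper layer of backfat (ULB), a subcutaneous adipose tissue (AT), in 5 normal-diet (NC) and 10 weight-loss (WL) samples of RNA-seq and in the same numbers of Hi-C samples. These 30 samples, of 599 in the series, were selected by their group and tissue labels. The animals were females of a small Chinese breed, the Bama pig, and were adult at 2 years of age. NC pigs stayed on a normal diet. WL pigs first ate a high-fat diet for 22 weeks and were then held for 12 weeks at 10% of the normal caloric intake. Weight-gain (WG) pigs, killed after the high-fat diet, are given beside them as 38 RNA-seq and 39 Hi-C samples of ULB. NC and WL samples therefore came from different animals, all pigs were fasted overnight before they were killed, and the sources used here do not say whether the NC pigs were killed together with the WL pigs. Obesity, its reversal, the restricted intake at the time of sampling, the date of killing and the age at killing cannot be told apart in this design.

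White adipocytes store triglycerides in one large lipid droplet. They build fatty acids from glucose by de novo lipogenesis, take up fatty acids that lipoprotein lipase releases from circulating lipoproteins, esterify both kinds onto a glycerol backbone, and release them again by lipolysis when food is scarce. Subcutaneous fat also holds progenitor cells that lay down collagen, endothelial cells, macrophages and lymphocytes. It secretes hormones such as leptin. Obesity is commonly accompanied by macrophage infiltration and by remodelling of the matrix, and the question put to these samples was what still differed in subcutaneous fat once the weight had been lost. Whole tissue was measured, so fewer cells of a type and less RNA per cell cannot be told apart.

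The RNA-seq libraries held between 8229496 and 22939420 estimated counts in NC and between 10858441 and 21677739 in WL. NC replicates 5, 9 and 12 stood apart from NC replicates 2 and 7 in both assays. The 13 protein-coding genes (PCGs) encoded in mitochondrial DNA took 15%, 17% and 13% of all TPM, the length-scaled unit in which a library's transcripts sum to a fixed total, in NC 5, 9 and 12, but 1.89% in NC 2, 2.92% in NC 7 and 0.623% to 2.94% in the WL libraries. On the first principal component of expression, which carried 30.8% of the variance, NC 5, 9 and 12 lay at -88.3, -70.3 and -61.4, NC 2 and 7 at 3.59 and -0.11, and WL at 3.48 to 45.6. In Hi-C, the mean A-B index (positive in the active compartment A, negative in the inactive compartment B) was -0.643, -0.356 and -0.405 in NC 5, 9 and 12, near -0.077 in NC 2 and 7, and -0.333 to 0.0153 in WL. NC 5 and 9 also had the fewest counts and the lowest PCG shares of TPM in their group (84.6% and 82.1%), although the shares of WL 3 and 10, at 78.7% and 78.6%, were lower still. The libraries of low base quality were NC 5 and 9 and WL 6 and 8. Results are therefore given with these libraries in view, and their part in the results was not tested. All 6 adipocyte markers were present, and their summed level ran from 11493 to 16233 TPM in NC and from 16039 to 31060 in WL. Keratinocytes, skeletal muscle and mesothelium would come from skin, muscle or the abdominal wall. Of their markers, 3 of 5, 3 of 7 and 1 of 5 have a row. For each of these cell types, the markers with a row summed to at most 7.40 TPM in any NC or WL library. The markers without a row could not be judged. The 3 markers of red cells, of which 2 have a row, summed to 164 to 1824 TPM in NC and 487 to 2796 in WL.

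**Figure D1:**
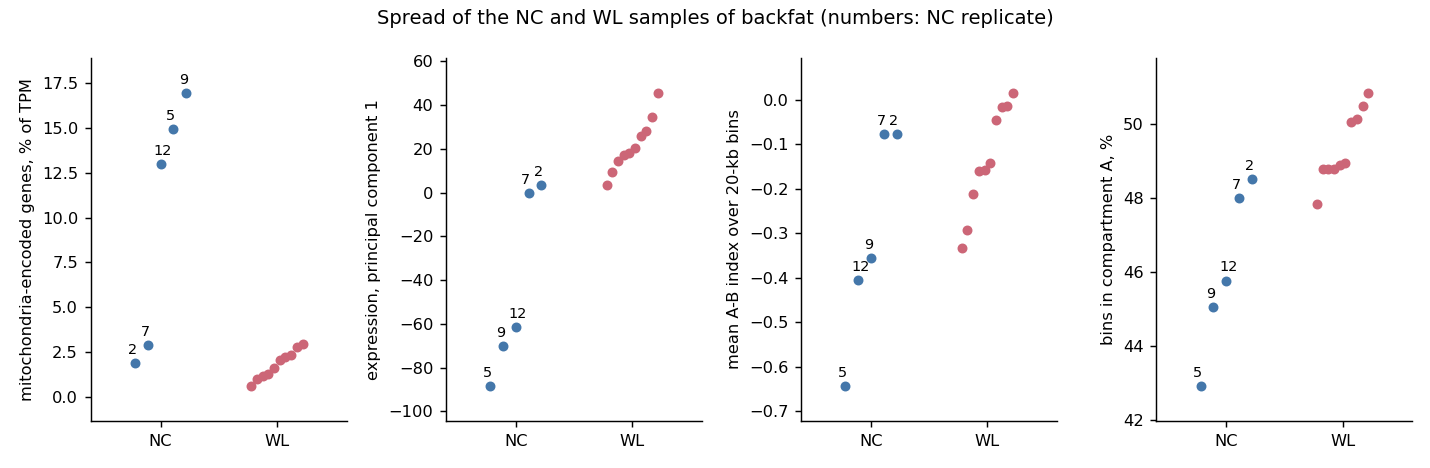
Each point is one sample of ULB (5 NC, blue, with replicate numbers; 10 WL, red). The panels give the share of TPM on mitochondria-encoded genes, the first principal component of expression, the mean A-B index and the share of 20-kb bins in compartment A; NC 5, 9 and 12 lie apart from NC 2 and 7 in all 4 panels.

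Of 13878 PCGs tested between WL and NC, 748 were higher in WL (5.39%) and 1300 were lower (9.37%) by edgeR's quasi-likelihood test, which required an adjusted p under 0.05 together with a change of over 1.5-fold. The median log2 fold change over all tested PCGs was -0.03. Ratios of mean TPM ran higher, with a median log2 ratio of 0.24, since TPM was not rescaled between libraries. TPM of NC and WL did not overlap for 509 of the tested PCGs (3.67%), of which 281 were called higher and 88 lower. On the scale used by the test, 476 did not overlap, 164 of them called higher and 232 lower. Overlap of single genes is given below in TPM, so a narrow gap between the groups need not hold on the test's scale. When each NC sample was left out in turn, 477 to 979 PCGs were called higher and 875 to 1588 lower, with the fewest of both kinds without NC 9. In every one of these 5 fits, 370 of the PCGs called higher and 585 of those called lower were called again. Without NC 5 and 9 together, 386 were called higher and 747 lower. Leaving out a WL sample gave 685 to 839 and 1039 to 1273. Calls in the gene lists below stand beside the shares over all tested PCGs, 5.39% higher and 9.37% lower. A list with calls near these shares is not read as changed. Genes described below as called kept their call with every single NC and WL sample left out unless a library is named. Of those that did, MLXIPL, FADS1, AGPAT1, PCK1, SLC27A4, PPARG, EBF1, TCF7L2, COL5A1, COL6A2, MMP2, C7, SERPING1, CCL19, MX2, ATF3, DDIT3 and NRSN1 lost it without NC 5 and 9 together.

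**Figure D2:**
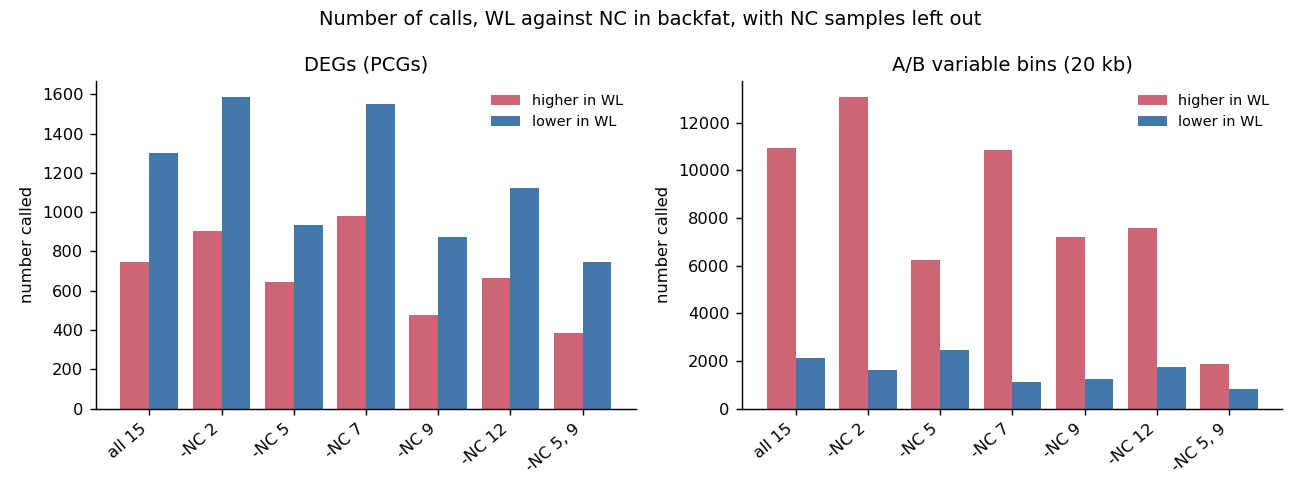
Bars give the number of PCGs (left) and of 20-kb bins of variable A-B index (right) called higher (red) or lower (blue) in WL than in NC, with all 15 samples and with the named NC samples left out. Without NC 5 and 9 the counts fell to 386 and 747 PCGs and to 1856 and 807 bins.

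De novo lipogenesis was lower in WL in 9 of its 20 tested genes and higher in 1 (FADS1), with a median log2 fold change of -0.65. FASN, the fatty acid synthase (ENSSSCG00000029944, chromosome 12 from 922405 to 937560 in Sscrofa11.1, by the RefSeq annotation used here), stood at 743, 939, 2195, 555 and 1866 TPM in NC 2, 5, 7, 9 and 12. In WL its lowest, median and highest levels were 9.01, 40.7 and 279 TPM. The groups did not overlap, and FASN fell by 4.25 ± 0.64 (SE) on the log2 scale (edgeR, adjusted p = 0.000375), which is 19-fold. ME1, the malic enzyme that supplies NADPH for fatty acid synthesis, measured 210, 292, 441, 159 and 406 TPM in the NC samples and 29.5, 77.4 and 110 TPM at the lowest, median and highest WL sample. Its log2 fold change was -2.37 ± 0.26 (edgeR, adjusted p = 5.47e-05), again without overlap. ELOVL6, which elongates palmitate, reached 330, 386, 852, 205 and 561 TPM in NC against 109, 165 and 226 TPM in WL, where only the lowest NC sample fell within the WL range (-1.70 ± 0.23, edgeR, adjusted p = 0.000173). TKT of the pentose phosphate pathway was lower as well, from 403 ± 113 TPM (SD, n = 5) to 188 ± 42.9 (SD, n = 10). Of the regulators, MLXIPL (ChREBP), which senses glucose, was lower (-2.01 ± 0.44, edgeR, adjusted p = 0.00525), and its adjusted p was 0.08 without NC 5 and 9 together. SREBF1 was lower by the test (-1.42 ± 0.45) but lost its call without NC 5 or 12 and without each WL sample except WL 3 and 9, and ACLY (-0.67 ± 0.18) lost it without NC 7. ACACA, which makes malonyl-CoA, measured 141 ± 64.5 TPM in NC and 143 ± 44.6 in WL and was not called. SCD, the main desaturase, measured 5586 ± 5071 and 2628 ± 1450 TPM and was not called (-1.28 ± 0.48, edgeR, adjusted p = 0.07).

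Glucose and fructose entry followed the same direction in single genes. SLC2A5, the fructose transporter GLUT5 (chromosome 6, 69507829 to 69535794), measured 16.1, 7.45, 38.1, 3.41 and 11.6 TPM in NC 2, 5, 7, 9 and 12 and 0.308, 0.786 and 3.30 TPM at the lowest, median and highest WL sample. All NC samples were above all WL samples, and the log2 fold change was -4.08 ± 0.53 (edgeR, adjusted p = 0.000162) and -3.45 without NC 7. PFKFB1, a bifunctional enzyme that sets the level of a glycolytic activator, measured 17.4, 17.4, 19.6, 31.2 and 57.5 TPM in NC against 0.461, 1.07 and 4.46 TPM in WL (-4.33 ± 0.44, edgeR, adjusted p = 2.97e-05). Of 21 tested genes of insulin signalling and glucose uptake, 4 were lower and none was higher. Besides SLC2A5 these were SLC2A4, the insulin-responsive transporter GLUT4 (43.2 ± 22.3 to 24.1 ± 7.5 TPM), INSR, the insulin receptor (58 ± 7 to 39.4 ± 9.93 TPM), and FOXO3, whose call was lost without NC 2, 5 or 12 or WL 1, 4, 5 or 6. The median of the list was -0.33.

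Triglyceride synthesis showed calls in both directions, 3 higher and 3 lower of 14 tested. The acyltransferases that complete the triglyceride moved apart. DGAT2, which is tied to newly made fatty acids, fell from 90.1, 228, 233, 84 and 486 TPM in the NC samples to 31.3, 69.9 and 102.3 TPM at the lowest, median and highest WL sample, with NC 2 and 9 inside the WL range (-1.86 ± 0.32, edgeR, adjusted p = 0.00105). DGAT1 rose from 6.03, 8.42, 12.7, 5.61 and 10.5 TPM to 13.3, 20.5 and 24.7 TPM, without overlap in TPM (0.99 ± 0.18, edgeR, adjusted p = 0.00135). PCK1, the key enzyme of glyceroneogenesis, measured 4.71, 30.4, 12.2, 9.84 and 77 TPM in NC 2, 5, 7, 9 and 12 and 53.7, 120 and 216 TPM in WL. Only NC 12 reached into the WL range (2.12 ± 0.50, edgeR, adjusted p = 0.00824), the change was 2.89 without NC 12, and the adjusted p was 0.059 without NC 5 and 9 together. GPD1, which makes glycerol 3-phosphate, was higher (0.85 ± 0.25) but lost its call without NC 5, 9 or 12. AGPAT1 was lower (-1.35 ± 0.28), as was LPIN1 (-1.01 ± 0.26), which lost its call without NC 5.

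Lipid storage and release differed in a few members. HILPDA, a lipid droplet protein that inhibits adipose triglyceride lipase, rose from 24.9, 35.9, 44.6, 27.7 and 28 TPM in NC to 93.5, 125 and 227 TPM at the lowest, median and highest WL sample (1.89 ± 0.23, edgeR, adjusted p = 0.000103). It was the 1 call among 11 tested genes of the lipid droplet coat. G0S2, another inhibitor of that lipase, measured 57.3, 25.5, 89.7, 20.5 and 2.81 TPM in NC and 71.3, 133 and 433 TPM in WL, and its call (2.0 ± 0.58) was lost without NC 5 or NC 9. Of 13 tested genes of lipolysis, 4 were higher and 1, the phosphodiesterase PDE3B that carries the antilipolytic signal of insulin, was lower (-0.75 ± 0.17). The other 3 called higher were receptors for natriuretic peptides and catecholamines, which control lipolysis. NPR3 (1.44 ± 0.45) lost its call without NC 2, 5, 9 or 12 or WL 5 and was 2.15 without NC 7. ADRB1 (1.24 ± 0.37) lost it without NC 7, 9 or 12, and NPR1 (0.63 ± 0.15) without NC 9. The lipases themselves were not called, with 226 ± 124 and 161 ± 51.7 TPM for PNPLA2 and 516 ± 82.2 and 606 ± 123 TPM for LIPE in NC and WL.

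Fatty acid uptake gave 2 genes higher and 1 lower of 13, beside 5.39% higher and 9.37% lower over all tested PCGs. LPL, lipoprotein lipase, measured 2518, 1571, 2069, 1483 and 2597 TPM in NC and 465.97, 1005 and 1350 TPM at the lowest, median and highest WL sample, all below NC (-1.35 ± 0.20, edgeR, adjusted p = 0.000392). GPIHBP1, the endothelial protein that carries LPL to the capillary lumen, was in contrast higher, at 160 ± 66.3 TPM in NC and 470 ± 150 in WL (1.29 ± 0.28). SLC27A4, a fatty acid transport protein, was higher as well (0.87 ± 0.22). FABP4, the abundant fatty acid binding protein of adipocytes, measured 8369, 6984, 9319, 8014 and 8544 TPM in NC and 10155, 13995 and 22210 TPM in WL. Its TPM did not overlap, but the test, which rescales the libraries, did not call it (0.55 ± 0.23, edgeR, adjusted p = 0.0921).

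**Figure D3:**
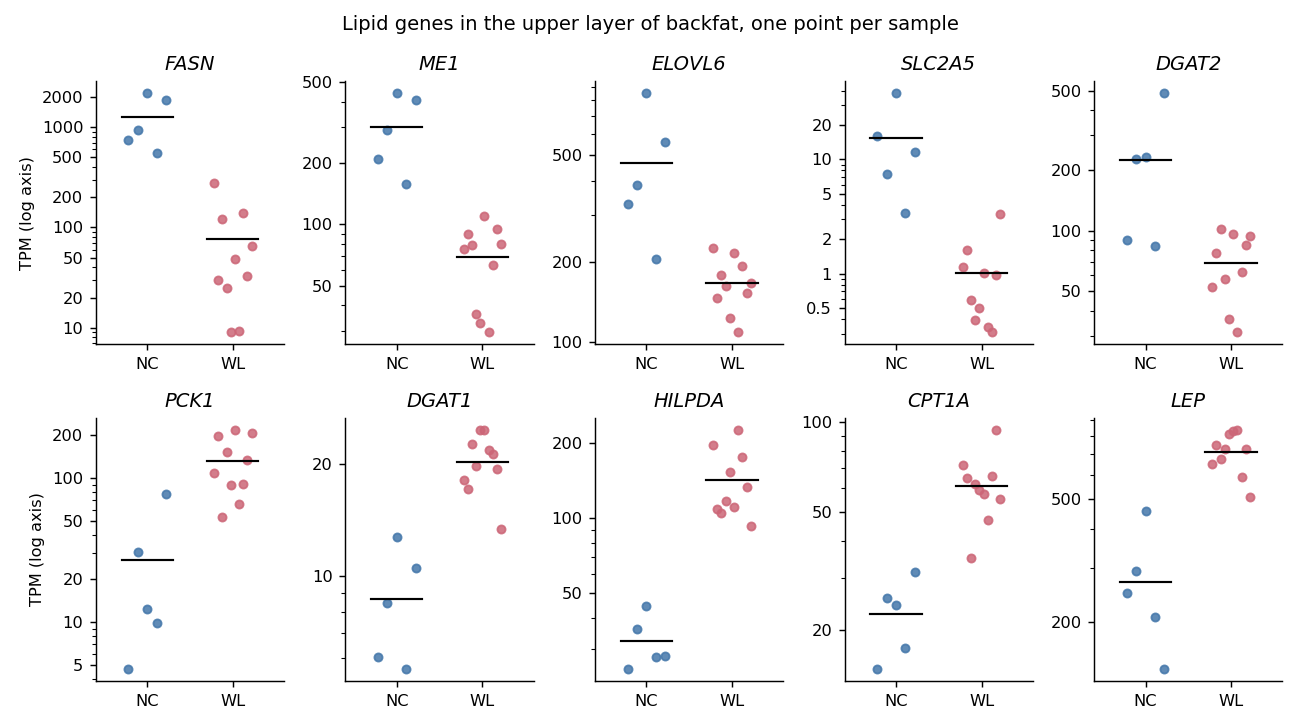
TPM of 10 lipid genes in ULB on log axes, one point per sample (5 NC, blue; 10 WL, red), with a bar at the group mean. FASN, ME1 and SLC2A5 lie lower in all WL samples than in any NC sample, and DGAT1, HILPDA, CPT1A and LEP lie higher.

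Fatty acid oxidation showed 1 gene higher and 5 lower of 27. CPT1A, which brings long-chain fatty acids into mitochondria, measured 14.8, 25.6, 24.4, 17.3 and 31.3 TPM in NC. The lowest, median and highest WL samples were at 34.8, 60.5 and 94.4 TPM, without overlap in TPM (1.18 ± 0.17, edgeR, adjusted p = 0.000339). The genes lower in WL included the regulator PPARA (-0.86 ± 0.17) and OXCT1, which uses ketone bodies (-0.77 ± 0.20). All 12 tested mitochondria-encoded genes were lower, with a median log2 fold change of -3.37. ND4, a subunit of complex I, measured 12876, 14164 and 12060 TPM in NC 5, 9 and 12, but 205 in NC 2 and 516 in NC 7. The WL samples ran from 48.9 through a median of 333 to 586 TPM, so that the NC 2 and NC 7 values fell inside the WL range. The fitted change of -5.04 ± 0.74 (edgeR, adjusted p = 0.000335) therefore rested on NC 5, 9 and 12, the libraries that stood apart in both assays. Of the 59 tested nuclear-encoded genes of the respiratory chain, 12 were lower and none was higher, with a median of -0.26. COX7A1 (-1.66 ± 0.29) and COX4I1 (-1.05 ± 0.20), both of complex IV, led that list. Without NC 5 and 9, 7 mitochondria-encoded and 15 nuclear-encoded genes were lower.

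Among 15 tested adipokines, 1 was higher and 5 were lower. LEP, leptin, which signals fat stores to the brain (chromosome 18, 20106867 to 20124071), measured 249, 293, 458, 207 and 141 TPM in NC 2, 5, 7, 9 and 12 and 509, 727 and 838 TPM at the lowest, median and highest WL sample. The groups did not overlap in TPM (1.13 ± 0.22, edgeR, adjusted p = 0.00301), and the WG median was 595 TPM. AGT, angiotensinogen, measured 310, 510, 370, 480 and 328 TPM in NC and 30.4, 103 and 151 TPM in WL (-2.33 ± 0.30, edgeR, adjusted p = 0.000162). ADIPOQ, adiponectin, at 3545 ± 1098 and 4323 ± 1320 TPM, was not called. Of 18 adipogenic transcription factors, 2 were called higher and 5 lower. PPARG, the central regulator of fat cell differentiation, was lower at 163 ± 34.1 TPM against 225 ± 66.8 in NC (-0.73 ± 0.18), and KLF5 and EBF1 were lower as well. TCF7L2 fell by 1.97 ± 0.39. Without NC 5 and 9 together, 1 member of this list, KLF5, was lower and none was higher, and the adjusted p was 0.105 for PPARG, 0.071 for EBF1 and 0.123 for TCF7L2.

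The extracellular matrix was lower in 12 of 34 tested genes and higher in 1 (COL15A1), with a median of -0.40. COL1A1, the main fibrillar collagen chain, measured 307, 770, 460, 2132 and 1801 TPM in NC and 96.6, 188 and 395 TPM at the lowest, median and highest WL sample. Only NC 2 lay within the WL range (-2.72 ± 0.36, edgeR, adjusted p = 0.000173). DCN, decorin, which binds collagen fibrils and marks fat progenitors, was lower without overlap, from 2851, 2165, 2359, 2558 and 2619 TPM in NC to 1079, 1199 and 1901 TPM in WL (-1.22 ± 0.18, edgeR, adjusted p = 0.000279). POSTN, periostin, measured 2489, 708, 1593, 1942 and 979 TPM in NC and 401, 539 and 968 TPM in WL, with the lowest NC sample inside the WL range (-1.68 ± 0.27, edgeR, adjusted p = 0.00066). COL3A1, COL6A1, COL6A2 and COL5A1 fell by 0.94, 1.39, 1.08 and 1.31. FN1, fibronectin, was lower by the test but lost its call without NC 5, 9 or 12 or WL 5, 6 or 8. Of 14 tested progenitor genes, 2 were lower (MFAP5, and PI16, which lost its call without NC 9). The summed level of the 6 progenitor markers ran from 2534 to 3206 TPM in NC and from 1368 to 2400 in WL. Most of that sum was DCN itself, at 2510 ± 261 TPM in NC and 1287 ± 248 in WL. Of the other markers, PI16 was called lower, and PDGFRA, DPP4, CD34 and LUM were not called. The part of progenitors in the matrix result was not tested.

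Among proteases, ADAMTS4, which cleaves aggrecan-type proteoglycans, measured 16, 19.6, 4.12, 3.68 and 15.4 TPM in NC and 12, 64.3 and 261 TPM in WL (2.67 ± 0.62, edgeR, adjusted p = 0.00779). The groups overlapped at the lowest WL samples. MMP2, a gelatinase made by stromal cells, was lower (-1.07 ± 0.23). ADAMTS1 was called higher but lost its call without NC 9. In all, 3 of the 15 tested genes of proteases and their inhibitors were higher and 1 was lower.

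Immune genes gave calls spread over several lists. Of 23 tested T and NK cell genes, 4 were higher and none was lower, with a median of 0.67. GZMH, a granzyme of cytotoxic cells, measured 2.01, 0.227, 2.72, 2.99 and 3.19 TPM in NC and 4.15, 7.55 and 15.6 TPM at the lowest, median and highest WL sample (1.62 ± 0.42, edgeR, adjusted p = 0.0132). CD28, a costimulatory receptor, was higher (1.77 ± 0.44), though at only 1.41 ± 0.595 TPM in WL. CD2 and CD3D were called higher as well, but CD2 lost its call without NC 12 and CD3D without NC 5, 7, 9 or 12 or WL 1, 3, 4, 5, 6 or 7. The summed level of the 6 T cell markers, of which 5 have a row, was 11 to 16.3 TPM in NC and 17.7 to 33.1 in WL. Of 10 tested B and plasma cell genes, 2 were higher and 1 lower. CD22, an inhibitory co-receptor of B cells, was higher (1.54 ± 0.36), BLNK lost its call without any 1 of 10 samples, among them NC 2, 5, 7 and 12, and PAX5 was lower but lost its call without NC 5, 9 or 12. CD38, an NAD-consuming ectoenzyme of activated leukocytes, measured 2.06, 0.29, 2.83, 3.22 and 3.96 TPM in NC and 7.08, 11.5 and 19.3 TPM in WL, without overlap (1.91 ± 0.35, edgeR, adjusted p = 0.00182).

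Macrophage genes were largely not called. Of 21 tested genes of resident and general macrophages, 1 was higher (STAB1, a scavenger receptor, 0.92 ± 0.22) and 1 lower (TIMD4, whose call was lost without NC 12). None of 20 tested genes of lipid-associated macrophages was higher. The 1 called lower, MMP12, stood at 2.25 ± 1.64 TPM in NC and passed in 1 of the 5 fits without an NC sample. TREM2, which defines these macrophages, measured 3.52 ± 1.43 TPM in NC and 8.15 ± 7.29 in WL, with a WG median of 6.36 (1.05 ± 0.55, edgeR, adjusted p = 0.189). The 6 macrophage markers summed to 335 to 595 TPM in NC and 423 to 1201 in WL, which overlap. Of 29 chemokines, cytokines and their receptors, 3 were higher and 3 lower. Among those higher were CCL19 (0.98 ± 0.25) and CX3CR1. CX3CR1 was called at an adjusted p of 0.0499 (edgeR), a call that was lost without NC 2, 5, 7 or 9 or WL 1, 3, 4, 5, 6 or 10. CCL21, which guides lymphocytes into lymphatic vessels, was lower (-2.43 ± 0.51, and -1.74 without NC 12). Of 6 tested MHC class II genes, SLA-DMB and SLA-DQB1 were higher, and both lost their calls without NC 5, 9 or 12. Of 11 tested complement genes, C7, a component of the membrane attack complex, was higher (1.39 ± 0.35), whereas C5 (-1.33 ± 0.30), the inhibitor SERPING1 (-1.05 ± 0.25) and CFB, which lost its call without NC 12, were lower. Among 25 interferon-stimulated genes only MX2 was called (1.01 ± 0.25). Of 19 endothelial genes 3 were higher, of which TIE1, an angiopoietin co-receptor (0.71 ± 0.14), kept its call throughout.

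The circadian clock list had 7 of 17 tested genes lower and none higher, with a median of -0.56. NR1D1 (REV-ERB alpha), a repressor in the clock and of lipid genes, measured 1.08, 21.9, 6.53, 22.4 and 13.9 TPM in NC 2, 5, 7, 9 and 12 and 0.244, 1.12 and 5.03 TPM at the lowest, median and highest WL sample. NC 2 lay close to the WL median and the other NC samples above the WL range (-3.34 ± 0.62, edgeR, adjusted p = 0.00176). The change was -2.28 without NC 5 and 9. CIART, a repressor of CLOCK and BMAL1, measured 15.1, 35.4, 32.2, 9.38 and 14.6 TPM in NC and 4.05, 7.55 and 11.7 TPM in WL (-1.75 ± 0.25, edgeR, adjusted p = 0.000279). HLF and NR1D2 fell by 0.97 and 0.79, whereas CLOCK itself, at 47.6 ± 10.2 and 60.7 ± 14.1 TPM, was not called. The hour of killing is not given for single pigs in the sources used here, and its part was not tested. Without NC 5 and 9, 4 clock genes were lower and the median of the list was -0.12. With a term for the libraries of low base quality, 6 were lower and the median was -0.30.

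The remaining lists had calls in both directions or few calls. Of 23 genes of cholesterol synthesis and uptake, 3 were higher and 4 lower, and IDI1 of the mevalonate pathway (-1.27 ± 0.23) kept its call throughout. Among 17 genes of the integrated stress response, CHAC1 (-2.36 ± 0.55) and PSAT1 (-1.07 ± 0.17) were lower and DDIT3 (1.23 ± 0.32) was higher. ATF3, an immediate early gene, was higher (1.53 ± 0.40), and of 12 genes of the glucocorticoid receptor and its targets, KLF9 (-1.37 ± 0.27) and LPIN1 were lower. FKBP5, another target, measured 181 ± 92 and 96.3 ± 79.6 TPM and was not called (edgeR, adjusted p = 0.054). Of the steroid genes, SRD5A1, a 5-alpha reductase, was lower (-1.48 ± 0.23) and PGR, the progesterone receptor, was higher (1.12 ± 0.26). None of 15 tested patterning transcription factors was called, and 2 of 12 thermogenic genes were lower, COX7A1 and CKB, the second of which lost its call without NC 12.

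**Figure D4:**
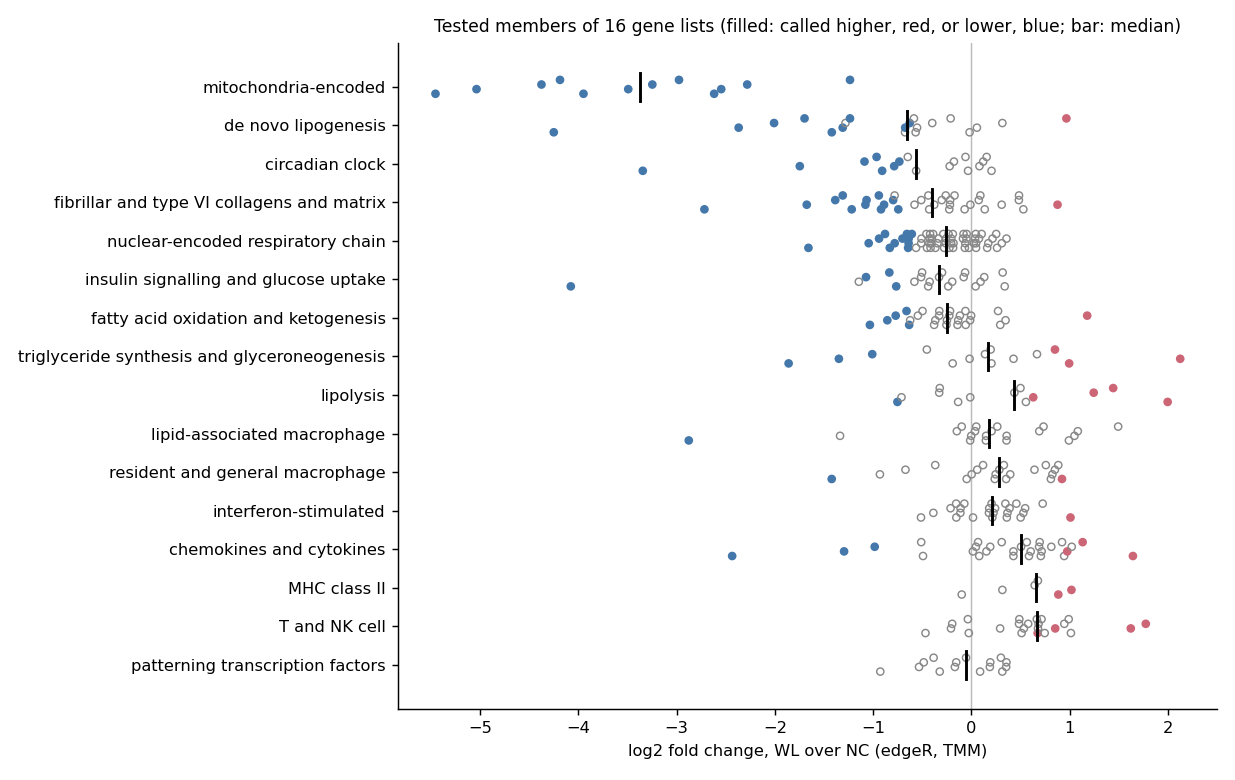
Each point is one tested gene of a list, placed by its log2 fold change in ULB, WL over NC (edgeR, TMM); filled points passed the test, red higher and blue lower, and the bar is the list's median. The mitochondria-encoded genes, with a median of -3.37, and de novo lipogenesis, with -0.65, lie to the left, and the T and NK cell genes, with 0.67, to the right.

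Outside the lists, the named genes with the largest changes had varied functions. PTX3, pentraxin 3, a secreted pattern recognition protein (chromosome 13, 97273594 to 97279570), measured 8.98, 6.68, 6.87, 3.11 and 5.09 TPM in NC and 12, 39.2 and 128 TPM at the lowest, median and highest WL sample (2.68 ± 0.46, edgeR, adjusted p = 0.00101). SCG5, a chaperone of prohormone convertase, measured 2.19, 0.506, 1.67, 0.892 and 1.8 TPM in NC and 5.12, 9.48 and 16.8 TPM in WL (2.54 ± 0.36, edgeR, adjusted p = 0.000218). PKDCC, a secreted tyrosine kinase of the matrix, rose from 11.5, 15.4, 24.5, 7.76 and 18.9 TPM to 41, 67.5 and 93.2 TPM (1.86 ± 0.21, edgeR, adjusted p = 5.47e-05). N4BP3 rose from 7.16, 10.3, 19.2, 6.75 and 18.2 TPM to 39.4, 47.6 and 69.3 TPM, with the same adjusted p. None of these 4 overlapped between the groups. GPR153, FOXC1 and CCNP were also among the largest rises, by 1.77, 1.83 and 2.61.

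The largest falls beside the mitochondrial and lipid genes were of ZNF599 and GLYATL2. ZNF599, a zinc finger gene (chromosome 6, 44369885 to 44388782), measured 1476, 1.87, 107, 2.37 and 42.8 TPM in NC 2, 5, 7, 9 and 12 and 1.88, 2.75 and 3.79 TPM in WL. NC 5 and 9 lay at the WL level, the other NC samples above it, and the fitted change of -7.20 ± 1.00 (edgeR, adjusted p = 0.000211) became -3.95 without NC 2. GLYATL2, which joins glycine to fatty acids, measured 53.3, 0.0905, 17.1, 1.26 and 3.66 TPM in the NC samples and 0.407, 0.815 and 1.1 TPM in WL, and its change of -4.53 ± 0.73 became -2.97 without NC 2. Both genes were spread widely within NC and stood highest in NC 2 and 7, where the mitochondria-encoded genes were low. TMEM25 (-3.39 ± 0.52), in contrast, did not overlap, at 4.48 to 18.5 TPM in NC and 0.251 to 2.29 in WL.

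Set beside the obese pigs, the genes differed in where WG stood. The WG comparisons use the same NC or WL samples as above, so the values are side by side and are not independent. In WG over NC, 69 PCGs were higher and 254 lower of 13600, and in WL over WG, 439 were higher and 668 lower of 13633. FASN had a WG median of 1039 TPM, and its log2 fold change was -0.27 in WG over NC (edgeR, adjusted p = 0.832) and -3.96 in WL over WG (edgeR, adjusted p = 9.6e-08). ME1, ELOVL6 and DGAT2 had WG medians of 371, 661 and 259 TPM, above the NC medians of the same genes, and were called lower in WL over WG. PCK1 had a WG median of 12.9 TPM and CD38 one of 4.11 TPM, and both were called higher in WL over WG (2.74 and 1.35). Of the genes given here, a few were called against NC already in WG. POSTN had a WG median of 519 TPM, with a log2 fold change of -1.50 in WG over NC (edgeR, adjusted p = 0.0012) and of -0.16 in WL over WG (edgeR, adjusted p = 0.67). AGT stood between the other groups, with a WG median of 181 TPM and changes of -1.14 (edgeR, adjusted p = 0.0132) and -1.17 (edgeR, adjusted p = 0.00093). DCN was called lower in WG over NC (-0.64, edgeR, adjusted p = 0.00675), while its change of -0.56 in WL over WG (edgeR, adjusted p = 0.00105) did not reach 1.5-fold. SCG5 had a WG median of 6.44 TPM and was called higher in WG over NC (2.12, edgeR, adjusted p = 0.0228), with 0.44 in WL over WG. LEP was not called in WG over NC (1.04, edgeR, adjusted p = 0.0634) nor in WL over WG (0.10, edgeR, adjusted p = 0.76).

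The same contrast in visceral fat was used to test whether ULB differed. The change in ULB differed from the mean change in the greater omentum, mesenteric and retroperitoneal fat (GOM, MAD and RAD) for 185 of 15047 PCGs (1.23%), 42 with a higher and 143 with a lower value in ULB. This fit had no block. The study took all of these tissues from each carcass, but the sources used here do not say that a replicate number marks 1 pig, and the deviations of same-numbered samples in ULB and another tissue correlated above 0.1 in 9 of 10 WL pairs for RAD, 8 of 10 for MAD and 6 of 10 for GOM, and in 1 of 5, 3 of 5 and 2 of 4 NC pairs. With the replicate number as a block over tissues, 1431 PCGs differed (9.51%). Of the 32 genes given by sample here, 3 passed without the block and 10 with it. PTX3 had changes of 0.20, 0.08 and -0.20 in GOM, MAD and RAD, and the difference was 2.62 ± 0.73 (edgeR, adjusted p = 0.0452). It was called in 0 of the 5 fits that left out an NC sample of ULB, where the adjusted p was 0.0526 to 0.119. ZNF599 had -0.24, 0.11 and -0.87 there (difference -6.93 ± 0.62, edgeR, adjusted p = 2.29e-13), and GLYATL2 had 0.42, 0.24 and -0.32 (difference -4.70 ± 0.58, edgeR, adjusted p = 4.89e-08). Without NC 2 these differences were -3.65 and -3.12, and both were called in all 5 such fits. With the block, PTX3 (2.09, edgeR, adjusted p = 0.016), ZNF599 (-5.15) and GLYATL2 (-4.65) were called again. PCK1 (2.81), CX3CR1 (2.31), SCG5 (2.32), N4BP3 (1.04), DGAT1 (0.75), DCN (-0.88) and SLC2A5 (-2.31) were called with the block but not without it. FASN fell by 4.49, 5.78 and 5.85 in the 3 visceral tissues and its difference of 1.09 ± 0.64 was not called (edgeR, adjusted p = 0.386, and 0.131 with the block). For LEP (1.80, 1.69 and 1.97) the difference was -0.72 ± 0.36 (edgeR, adjusted p = 0.3, and 0.287 with the block). The number of PCGs that differed depended on single NC samples of ULB, with 91 without NC 2, 343 without NC 5, 81 without NC 7 and 324 without NC 9.

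Chromatin compartments were compared in 113298 bins of 20 kb on the 18 autosomes. Bins called A/B variable kept their compartment on average but differed by more than 0.75 in the A-B index at an adjusted p below 0.05 (limma). In WL, 10932 bins had a higher index (9.65%) and 2122 a lower one (1.87%). Bins with a higher index lay mostly in compartment A (7685) and those with a lower index mostly in B (1866, or 87.9%). The median difference over all bins was itself 0.14, WL over NC. When the index was quantile normalized across the 15 samples, which turned that shift into -0.03, 6143 bins were higher and 4245 lower, so the excess of higher bins depended on the scaling. Of the 10932 higher bins, 4999 were called under that scaling and 5076 (46.4%) with every NC sample left out. For the lower bins these numbers were 1650 and 612. The number of higher bins was 6214 without NC 5 and 7192 without NC 9, and that of lower bins 1126 without NC 7 and 1250 without NC 9.

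Most variable bins stood alone or in short runs, 5165 runs in the higher direction, 3165 of them single bins, and 1458 in the lower. The run with the second most bins held the fatty acid binding protein cluster. It spanned 660 kb on chromosome 4, from 54940001 to 55600000, with FABP4, PMP2, FABP5 and PAG1. Its mean index was 1.00, 0.885, 1.09, 0.957 and 0.771 in NC 2, 5, 7, 9 and 12 and 1.78 to 3.02 in WL, with a group mean of 0.941 ± 0.121 (SD, n = 5) against 2.47 ± 0.411 (SD, n = 10) and 1.88 in WG. All NC samples lay below all WL samples and close to each other, including those that stood apart elsewhere. The runs were picked for adjacent bins called between NC and WL, so separation of the groups in them is partly set by that choice. All 33 bins of the FABP4 run were called with each NC sample left out and 25 after quantile normalization. Of its genes, PAG1, an adaptor that restrains SRC kinases, was called higher in expression (1.11).

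The longest run, 760 kb with CBLN1 on chromosome 6 (35320001 to 36080000), lay in compartment B, at -3.68 ± 0.673 in NC and -1.92 ± 0.69 in WL, and just overlapped. AJAP1 on chromosome 6 (65460001 to 66100000), PRKCH on chromosome 1 (190000001 to 190520000) and KY with EPHB1 on chromosome 13 (75760001 to 76240000) lay in the next ones, and none of the tested genes there was called. In the lower direction, the longest run held PDE3A, a phosphodiesterase, on chromosome 5 (52360001 to 52880000), at -1.79 ± 0.192 in NC and -2.81 ± 0.374 in WL. SEMA3E lay in a run on chromosome 9 (96520001 to 96900000) and NRSN1 in one on chromosome 7 (18900001 to 19160000). NRSN1 was also called lower in expression (-1.83), while its run overlapped between the groups.

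**Figure D5:**
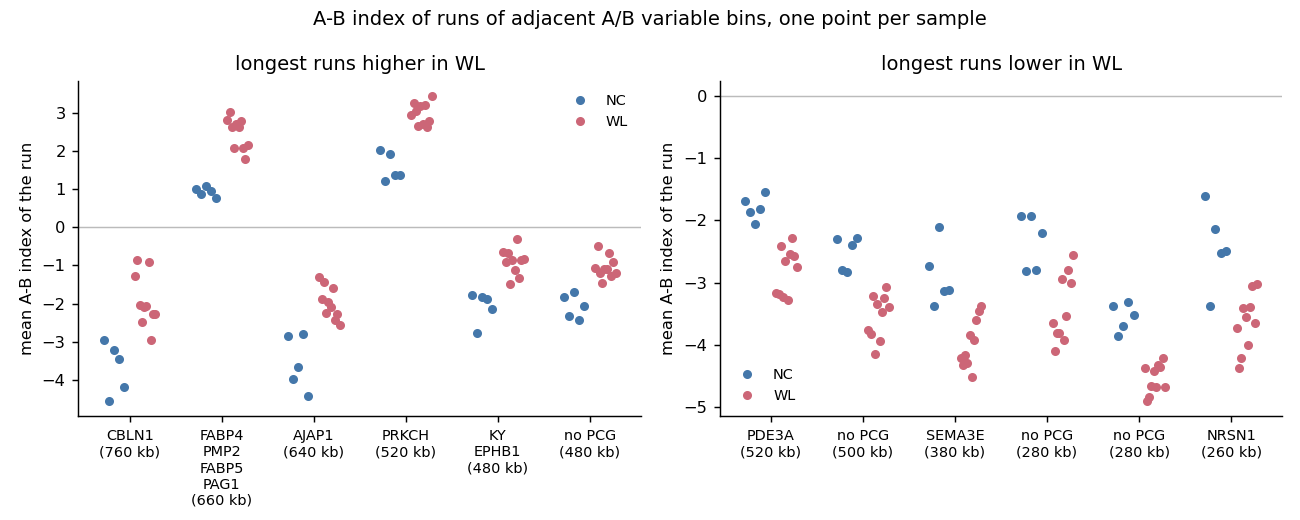
Mean A-B index (no unit; above 0 is compartment A) of the 6 longest runs of adjacent A/B variable bins in each direction, one point per sample of ULB (5 NC, blue; 10 WL, red), with the PCGs that start in the run and its length. The run with FABP4 lies at 0.771 to 1.09 in NC and at 1.78 to 3.02 in WL.

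There were 231 named genes, and some could not be placed in a bin. Of those placed, 14 start in a variable bin of higher index that was called with each NC sample left out. Such bins numbered 5076 of 113298 over the autosomes. For 9 of the 14 genes the bin was also called after quantile normalization. Expression was called higher for 7 of the 14 genes and lower for 2, and 5 were not called. Named genes were chosen in part by their expression calls, and 146 of all 224 tested named genes were called in expression. These counts are therefore a description, with no test. The index of the bin of LEP was 1.79 ± 0.497 in NC and 2.96 ± 0.317 in WL, a call that was lost after quantile normalization, and that of G0S2 was 2.18 ± 0.496 and 3.49 ± 0.352. For CD38 it was 1.61 ± 0.512 and 3.24 ± 0.612, for CX3CR1 0.552 ± 0.137 and 1.94 ± 0.512, and for ADAMTS4 3.69 ± 0.397 and 4.90 ± 0.659. These, with GZMH and MX2, were higher in index and in expression. LPIN1 (0.381 ± 0.612 to 1.57 ± 0.517) and NDUFB4 (0.889 ± 0.414 to 1.96 ± 0.308) had a higher index and a lower expression, and the call of NDUFB4's bin was lost after quantile normalization. FABP4, IL6, MX1, TIMP3 and TREM2 had a higher index and no call in expression, and the bins of IL6, TIMP3 and TREM2 lost their call after quantile normalization. The bins of FASN (5.31 ± 0.196 and 5.02 ± 0.567), ME1 (-1.16 ± 0.282 and -1.02 ± 0.318) and HILPDA (4.77 ± 0.339 and 4.81 ± 0.305) were not called.

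Over all PCGs on autosomes, 5.64% were called higher in expression and 9.03% lower. The median log2 fold change was 0.05 for the 1065 tested PCGs that start in bins of higher index, 82 of them called higher (7.70%) and 88 lower (8.26%), and -0.04 for the 93 in bins of lower index, with 5 (5.38%) and 13 (14%). It was -0.01 for all 10472 on autosomes. In compartment B, 13 of 68 tested PCGs in bins of higher index were called higher (19.1%) and 4 lower (5.88%), and in bins of lower index 1 of 39 was called higher (2.56%) and 8 lower (20.5%). In compartment A these numbers were 69 (6.92%) and 84 (8.43%) of 997, and 4 (7.41%) and 5 (9.26%) of 54. These shares are a description, with no test of a difference. A switch from B to A, with over 80% of samples in opposite compartments, occurred in 311 bins (0.274%) and one from A to B in 22 (0.0194%). After quantile normalization there were 125 and 130. Of the 18 PCGs that start in bins switched to A, 8 were tested, and PPP1R1A, a protein phosphatase inhibitor (-1.81), and VDR, the vitamin D receptor (-1.46), were called lower in WL. VDR passed in 1 of the 5 fits without an NC sample and in 2 of the 10 without a WL sample.

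H3K27ac, a mark of active enhancers, was deposited as tables pooled over 3 NC and 2 WL samples of ULB, so it has no replicate error. Of the pooled NC samples, only replicate number 7 also occurs among the NC samples of RNA-seq and Hi-C. The NC table held 19558 regions, 998 of them marked as super-enhancers, while for WL these numbers were 25311 and 1652. Since more regions and more signal were called in WL, only the presence of regions and their super-enhancer listing are described. That listing ranks signal within 1 table after nearby regions are joined, so it does not compare signal between NC and WL. At FABP4 with a flank of 10 kb, the NC table held no region and the WL table held 2, with 1 super-enhancer. At ME1 it was 1 region in NC and none in WL. A super-enhancer was listed at FASN in NC but not in WL, where 2 regions remained. The pooled net signal of the regions at FASN was 12260 over 140.6 kb in NC and 17211 over 39.6 kb in WL. The missing listing in WL therefore does not show less signal there. At CPT1A and PKDCC a super-enhancer was listed in WL but not in NC. Other named genes did not follow their expression. INSR, MMP2, C5 and CHAC1 also had one only in WL, although all were called lower in expression. PLIN1 and VEGFA had one only in NC and were not called. The relation of the mark to expression was not tested. DGAT2, HILPDA and COL1A1 had a super-enhancer in both tables.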

How the data were processed

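Only columns that match a deposited sample were used. A further 9 columns per table carry NC names but match none, and they were not used here. Of these, 7 are named for NC ULB. The paper reports more NC samples of ULB than the 5 used here, and it took data of 9 pig adipose samples from public sources. Whether the unmatched columns hold those data was not checked. The authors prepared strand-specific libraries depleted of ribosomal RNA, quantified PCGs, lncRNAs and TUCPs with kallisto 0.43.0 and used tximport to reach gene level. The authors' deposited estimated counts were rounded to whole numbers. The deposited TPM table holds the authors' TPM over all these gene kinds and was used for levels and the filter. The authors computed the deposited A-B index score for 20-kb bins from MboI Hi-C matrices (Juicer, mapping quality of at least 30, Knight-Ruiz balancing, BNBC normalization), and no count per bin comes with it, so its depth is unknown. The authors aligned H3K27ac reads with BWA 0.7.15, called peaks with SICER and deposited ROSE regions with a pooled signal.

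A PCG entered a test if it exceeded 0.5 TPM in 80% or more of 1 group. The tests used edgeR 4.0.16 (TMM, quasi-likelihood, two-sided, Benjamini-Hochberg) in R 4.3.3, without a block, as the study names none for its expression tests. The depot comparison was also fitted with the replicate number as a block, since the study took all tissues from each carcass. The index was tested with limma 3.58.1. Alternatives included DESeq2 1.42.0, and the term for low base quality and the fits without NC 5 and 9 together were chosen after seeing the data. Errors are SE for fold changes and SD for levels. Whether replicates are separate pigs is not stated by the labels, so p-values measure the spread between these samples. The 35 gene lists were chosen with earlier results of these data known. Named genes were the 15 largest rises and falls among symbols above 5 TPM called in all 5 fits without an NC sample, and up to 6 called plus the first 4 members of each list. FADS1, COL15A1, PPP1R1A and VDR were named after their values were seen. The tests were tried on simulated data. Some called members of the gene lists are counted but not reported here by name.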

Additional observations from a re-analysis of the deposited data

Results flagged for a closer look

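In 6 of 64 gene-and-group sets, 1 sample lay far from the others of its group by Dixon's criterion. Chance alone meets it in about 1 of 20 sets of normally distributed values, which TPM need not be. In all 6 sets it was the highest sample. FASN reached 278.6 TPM in WL 1 and SLC2A5 3.30 TPM in WL 10, both still below every NC sample. DCN reached 1901 TPM in WL 4, NR1D1 5.03 TPM in WL 3 and CD38 19.3 TPM in WL 6. ZNF599 reached 1476 TPM in NC 2, and its fitted change became -3.95 without that sample.

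For 3 genes the change in ULB differed by test from the mean change in GOM, MAD and RAD (edgeR, without a replicate block). The difference was 2.62 for PTX3, which was called in 0 of the 5 fits without an NC sample of ULB, -6.93 for ZNF599 and -4.70 for GLYATL2.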

How the results depend on the processing

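Genes called by the test (DEGs) numbered 748 higher and 1300 lower in WL. The counts stayed within 1.5 times of these under DESeq2, edgeR's exact test, DESeq2's size factors, no filter, all 3 groups in the fit, and terms for the PCG share and low base quality. They fell to 333 and 865 with only libraries of at least 90% PCG share, and to 386 and 747 without NC 5 and 9 together. Leaving out an NC sample gave 477 to 979 higher and 875 to 1588 lower, and a WL sample 685 to 839 and 1039 to 1273. NC and WL share the numbers 2, 5, 7 and 9, but their deviations correlated at 0.15, -0.098, 0.27 and 0.057 in RNA-seq and at 0.15, -0.084, -0.018 and 0.28 in Hi-C, so the numbers were not taken to pair pigs. With the replicate number as a block, 105 DEGs were called higher and 223 lower, 0 A/B variables were called in either direction (limma; 22602 bins had an unadjusted p under 0.05), and 1431 PCGs differed between depots.

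A/B variables numbered 10932 higher and 2122 lower. They were 6143 and 4245 after quantile normalization, 4041 and 354 at an adjusted p below 0.01, 1856 and 807 without NC 5 and 9, and 3428 lower without WL 9 and 10. The ranges without an NC sample were 6214 to 13086 and 1126 to 2466, and without a WL sample 9239 to 11919 and 1566 to 2687. Switches to A (311) and to B (22) were 125 and 130 after quantile normalization and 1971 and 241 at frequencies of 70% and 30%, and those to B were 144 without NC 5 and 9. Without an NC sample, switches to A ran from 324 to 619 (619 without NC 2). Those to B ran from 24 to 51 (51 without NC 5 and 45 without NC 9). Without a WL sample the ranges were 321 to 402 and 22 to 29. The fits with NC or WL samples left out could not give fewer switches than 311 and 22. At these group sizes, a bin that met the frequency rule with all samples also met it in them. These ranges therefore do not show how stable the switches were. The 185 depot differences were 292 with a 90% PCG share and 81 to 343 without an NC sample. Apart from this lower limit on the switches, the cause of the changes in these counts was not tested. Of 146 called named genes, 146 kept their call under DESeq2, 126 with the low-quality term, 85 without NC 5 and 9 and 42 with the block. No called direction reversed. No read depth accompanies the A-B index, and its error here is the spread among samples of a group.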
